A study of Mus musculus with 6 samples.

Results

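ATF4 is a transcription factor that drives the gene programme of the integrated stress response, and 32 genes of that programme were followed in mouse gastrocnemius muscle. They were taken by symbol from a table of 51911 genes: 5 transcription factors, 5 stress effectors, 7 enzymes of amino acid synthesis, 3 enzymes of mitochondrial one-carbon metabolism, 5 amino acid carrier genes, the receptor gene Vldlr, the hormone genes Fgf21 and Gdf15, and 4 cytosolic tRNA synthetase genes. The rule uses gene names and no measured value, but the members were chosen with earlier results of these data known. The muscle came from male HSA-PGC-1a3 transgenic mice (alpha3_tg) and male wild-type mice, with 3 libraries of each, read by bulk RNA sequencing. HSA stands for human skeletal actin, whose promoter works mainly in muscle fibres and drives expression of PGC-1alpha3, an isoform of the coactivator PGC-1alpha. The labels state no treatment, strain or age, and nothing in them says how many animals stand behind a library, so each p-value reflects variation from library to library, which may be technical. The comparison asks how overexpression of this isoform changes the muscle transcriptome.

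Total counts ran from 25532146 to 40846872 per library. Ppargc1a, which encodes PGC-1alpha and its isoforms, was at 2447 to 3235 CPM (counts relative to library size, with TMM scaling) in transgenic libraries and 51.0 to 53.4 CPM in wild-type libraries, so each library matched its label. Native and transgenic transcripts are counted together here. All 10 markers of skeletal muscle fibres were expressed in every library, and their summed level was 78845 to 79943 CPM in transgenic and 153010 to 163941 CPM in wild-type libraries. By the test described below, 6 of the 10 were lower in transgenic muscle (Acta1, Ckm, Myh4, Tnnt3, Pvalb and Actn3) and 1 was higher (Myh1). The sum is therefore no measure of the amount of fibre. The scaling matters for small changes. The TMM factors had a mean of 1.15 for the transgenic and 0.872 for the wild-type group. Dropping them, so that only library totals scale the counts, moved the median over all tested genes from -0.016 to 0.379 on the log2 scale. Values below use TMM, and members whose call changes with library totals are named.

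In the integrated stress response, kinases that sense amino acid shortage, misfolded protein, double-stranded RNA or haem and mitochondrial stress phosphorylate the initiation factor eIF2. General translation then slows while the ATF4 mRNA is translated more, so ATF4 protein can rise with little change in its mRNA. ATF4, often paired with a C/EBP protein, binds C/EBP-ATF response elements and switches on genes for amino acid synthesis and uptake, tRNA charging and stress signalling. In skeletal muscle this programme is known for its activation by mitochondrial dysfunction and for the release of FGF21 and GDF15.

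The core of the response element, TGATGNAA, was searched on both strands of RefSeq promoters (GRCm38.p6; 250 bases before to 50 after each start site, 300 bases in all). RefSeq entries were matched for 27 of the 32 members (not for Eif4ebp1, Cth, Slc7a5, Nars and Wars), and 11 of the 27 (40.7%) held the core, against 1219 of 27025 genes (4.51%) over the whole table. The commonest spelling, TGATGCAA or its reverse complement TTGCATCA, stood in 8 of the 27 (29.6%) and in 1.03% of all genes. The members were chosen as known targets of ATF4, so this share is a description of the list and no test of it. The stretches around the core are shown for members the results turn on and for the clearest matches, 5′ to 3′ on the gene's strand, with the core in capitals.
Atf3, chr1:191183410-191183469, minus strand: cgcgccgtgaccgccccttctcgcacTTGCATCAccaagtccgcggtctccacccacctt
Chac1, chr2:119351023-119351082, plus strand: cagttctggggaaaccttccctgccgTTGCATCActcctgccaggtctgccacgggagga
Pycr1, chr11:120643818-120643877, minus strand: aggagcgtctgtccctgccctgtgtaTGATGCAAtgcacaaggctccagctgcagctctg
Fgf21, chr7:45615596-45615655, minus strand: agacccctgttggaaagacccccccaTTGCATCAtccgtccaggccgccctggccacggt
Slc7a11, chr3:50443646-50443705, minus strand: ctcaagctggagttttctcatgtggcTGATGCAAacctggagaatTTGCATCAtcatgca
Asns, chr6:7693215-7693242, minus strand: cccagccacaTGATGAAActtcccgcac
Vldlr, chr19:27216810-27216837, plus strand: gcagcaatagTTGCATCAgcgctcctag
Gars, chr6:55037945-55038000, plus strand: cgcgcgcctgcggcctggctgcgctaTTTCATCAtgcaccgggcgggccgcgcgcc
The matches before a start site began 23 (Asns) to 200 (Vldlr, its second annotated start) bases upstream. For Asns, Vldlr, Aars and Nupr1 the sequence around that match touches an annotated exon. Nupr1 and Trib3 also held the core, in Trib3 after the start site. Of the 11 members with a match, 3 were lower in transgenic muscle (Vldlr, Aars and Gars), 6 did not pass the test, 2 were too low to test and 0 were higher. Of the 16 with a promoter entry and no match, 3 were lower, 2 higher, 10 did not pass and 1 was not tested. A match says only that the letters are there.

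Under TMM scaling, but not with library totals alone, members that passed the test were mostly lower in transgenic muscle. Atf4 itself, the translation brake Eif4ebp1, the proline synthesis gene Aldh18a1, the carrier genes Slc7a5 and Slc38a2, the receptor gene Vldlr and the synthetase genes Aars, Gars and Nars fell, while the serine synthesis gene Psph and the one-carbon gene Shmt2 rose. Of the 32 members, 29 passed the filter on low counts and were tested (edgeR quasi-likelihood test, Benjamini-Hochberg adjustment over all genes, threshold 0.05): 9 were lower, 2 higher and 18 did not pass. The 11 called members are 37.9% of those tested, against 50.7% of all 16593 genes tested, and by direction 25.2% of all genes were called lower and 25.5% higher. Their median log2 fold change was -0.32, against -0.016 over all tested genes, and 19 of the 29 lay below 0. With library totals alone, 6 members were called lower and 9 higher (51.7% in either direction), against 8.74%, 52.3% and 61.0% of all genes, and the members' median was 0.071 against 0.379. Under TMM the 2 groups' libraries did not overlap for 14 members, 11 lower and 3 higher, while over all genes 59.6% did not overlap, 29.5% lower and 30.1% higher. At least 1.5-fold and past the threshold were 8 members, 7 lower and 1 higher; the shares over all genes were 24.0%, 11.3% and 12.7%. The median moved when single libraries were left out. It was -0.14 without wild-type replicate 3, -0.15 without wild-type replicate 1 and -0.087 without transgenic replicate 2. The middle member was Pycr1 (-0.32) and the next above it Asns (-0.14), so the shift of a single member past the middle changes the median markedly. Leaving out transgenic replicate 2 also raised the number of members called higher from 2 to 4.

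**Figure D1:**
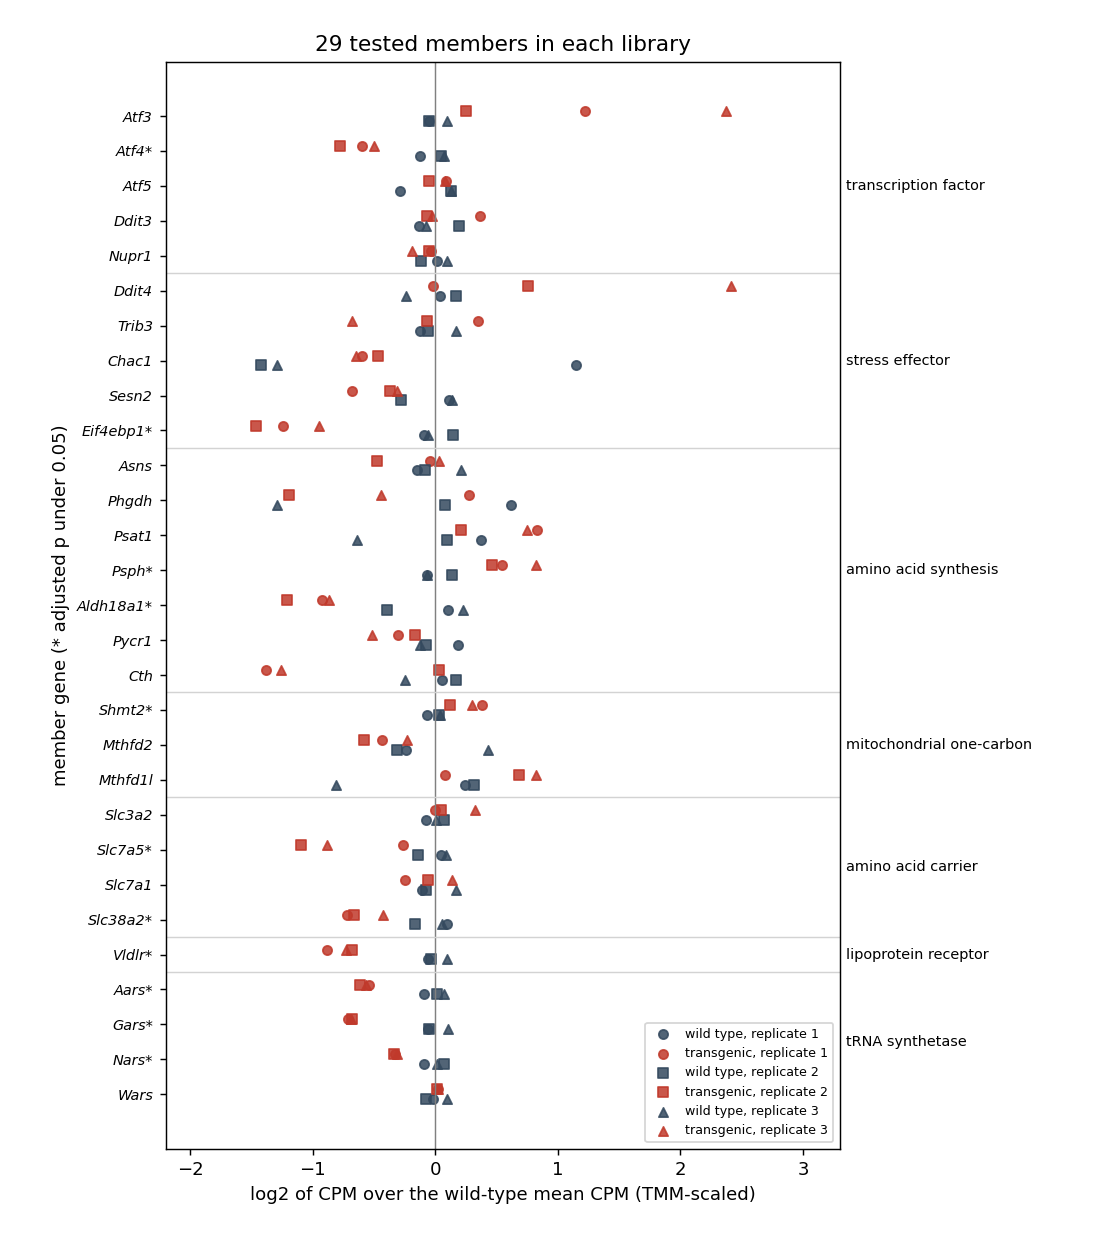
Level of each of the 29 tested members in each library, as the log2 ratio of its TMM-scaled CPM to the wild-type mean CPM; red points are the 3 transgenic libraries, dark points the 3 wild-type libraries, and symbols mark replicates. Gars, Aars and Vldlr separate cleanly and to the left of 0, while Atf3, Ddit4 and Chac1 are spread by single libraries; with library totals alone every red point would lie about 0.4 further right relative to the dark points.

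**Figure D2:**
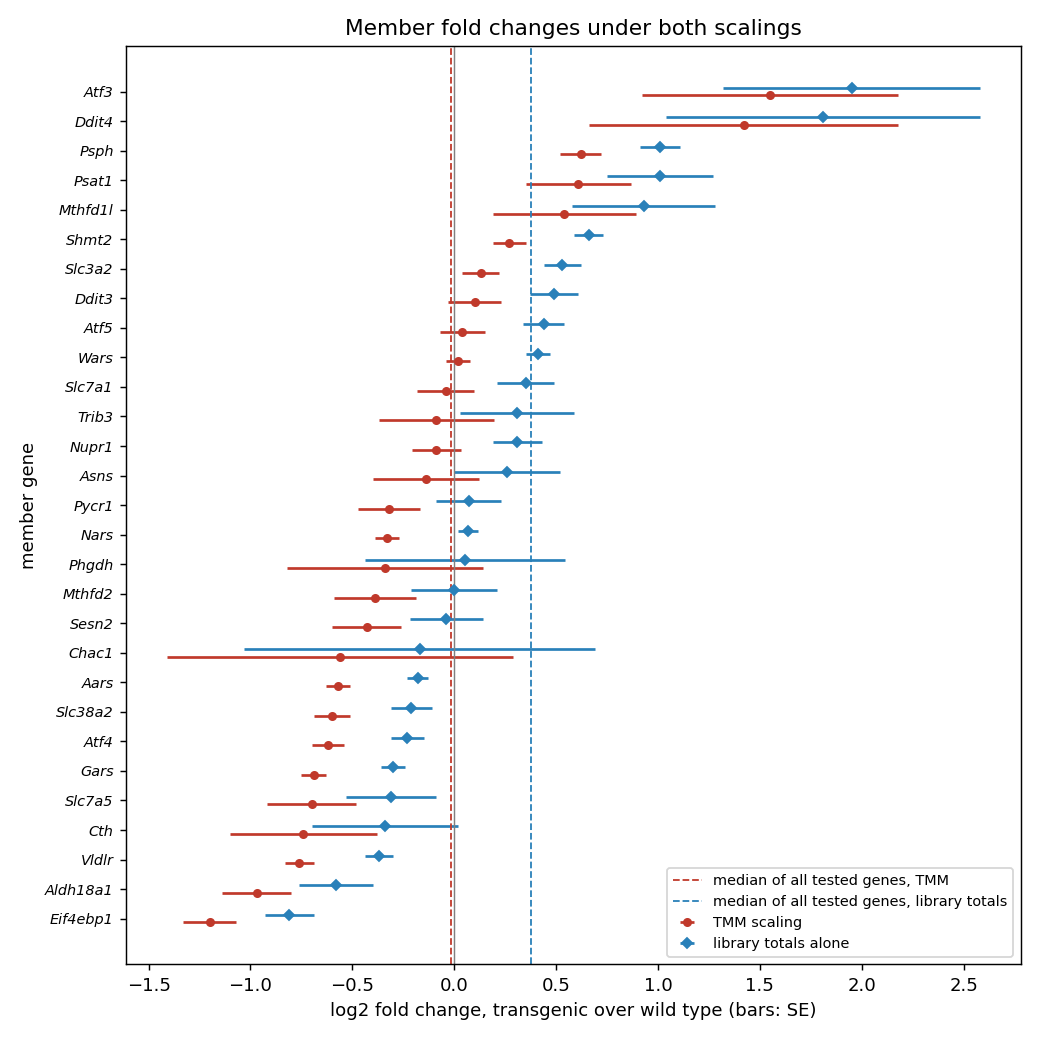
Log2 fold change (transgenic over wild type, with SE) of the 29 tested members under TMM scaling (circles) and with library totals alone (diamonds); dashed lines are the medians of all tested genes, -0.016 and 0.379. The whole set shifts to the right with library totals, and Nars moves from -0.33 to 0.068.

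For 3 members 1 library lay far from the rest of its group, and these libraries are given before the results by role. Transgenic replicate 3 held the highest Atf3 and Ddit4 and the highest transgenic level of all 9 immediate early genes examined (Fos, Fosb, Junb, Egr1, Ier2, Btg2, Nr4a1, Zfp36 and Dusp1, a list chosen after the values of Atf3 and Ddit4 were seen); for 8 of the 9 it was the highest of the 6 libraries. Immediate early genes respond within minutes to stimulation or handling of a tissue. Junb was at 25.2, 40.3 and 138 CPM in transgenic replicates 1 to 3 and at 10.2, 15.1 and 18.6 CPM in wild-type replicates 1 to 3. Fos was at 15, 12.1 and 48.4 CPM against 8.01, 6.39 and 11.3 CPM. With TMM 0 of the 9 passed the test; with library totals alone Ier2 was called higher (1.01, adjusted p = 0.0304). Wild-type replicate 1 held the highest Chac1, and its summed level of 6 adipocyte markers was 155 CPM, against 16.5 to 21.9 CPM in the other wild-type and 8.45 to 39.8 CPM in the transgenic libraries. Whether these differences have a part in the values of Atf3, Ddit4 and Chac1 was not tested.

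**Figure D3:**
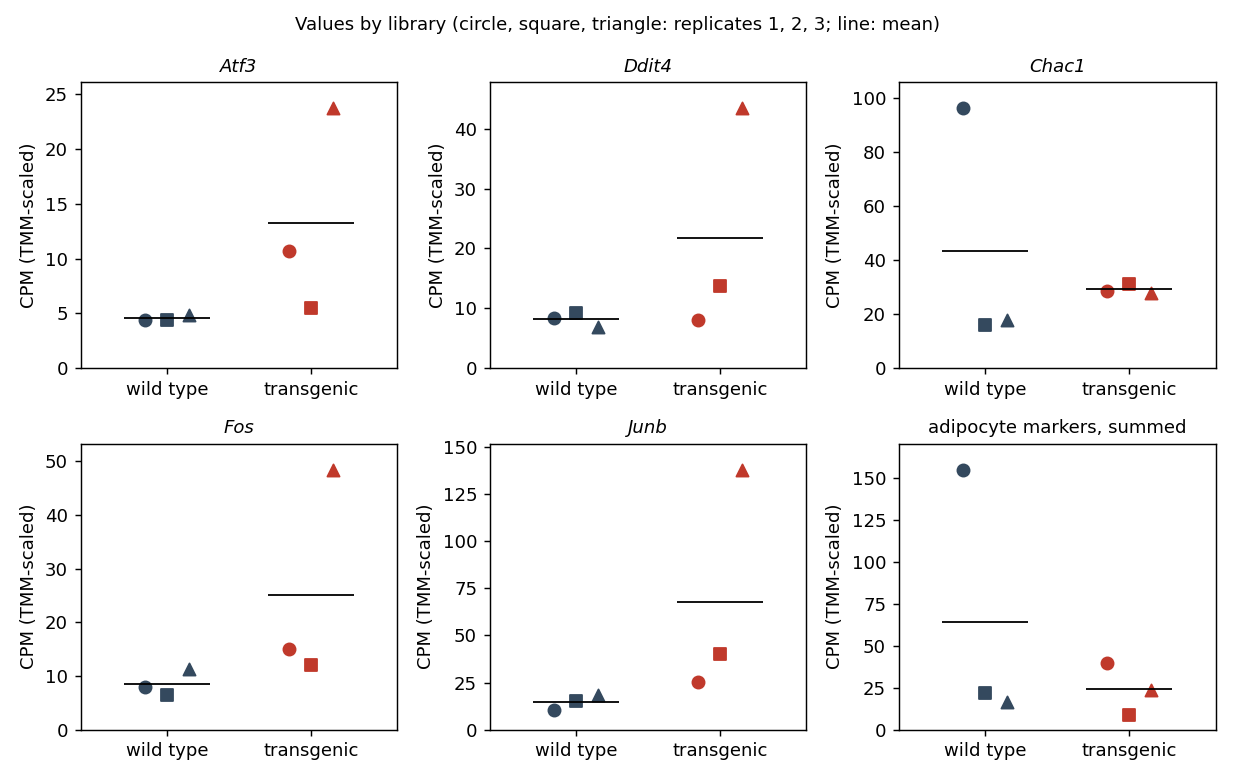
TMM-scaled CPM by library for Atf3, Ddit4, Chac1, the immediate early genes Fos and Junb, and the sum of 6 adipocyte markers, with a line at each group mean. Transgenic replicate 3 (red triangle) is highest for Atf3, Ddit4, Fos and Junb, and wild-type replicate 1 (dark circle) is highest for Chac1 and for the adipocyte markers.

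Among the transcription factors, Atf4 fell and the other 4 did not pass (25.2% of all tested genes were called lower). Atf4 (ENSMUSG00000042406, chr15:80255184-80257541 on GRCm38, the build of all positions here) was at 116, 102 and 124 CPM in transgenic replicates 1 to 3 and at 161, 181 and 184 CPM in wild-type replicates 1 to 3. Every transgenic library lay below every wild-type library. The means were 114 ± 11.4 and 175 ± 12.4 CPM (SD, n = 3 each), a difference of -0.62 on the log2 scale (SE 0.08, adjusted p = 8.67e-05), or 1.54-fold lower. With library totals alone Atf4 was still called lower, at -0.23 (adjusted p = 0.0264), although the groups then overlapped. These are mRNA levels, and the amount of ATF4 protein was not measured.

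Ddit3 encodes CHOP, a factor that ATF4 induces under lasting stress. It was at 23.3, 17.3 and 17.8 CPM in transgenic and 16.5, 20.7 and 17.2 CPM in wild-type libraries, which overlap. Its log2 fold change was 0.10 (SE 0.13, adjusted p = 0.570), and with library totals alone it was called higher at 0.49 (adjusted p = 0.00584). Ddit3 shares 105 exonic bases with a second gene model of the same symbol. Atf5, a paralogue of Atf4 that acts in the mitochondrial stress response, averaged 71.7 ± 3.84 against 69.7 ± 11.0 CPM, and its change of 0.039 (SE 0.11, adjusted p = 0.786) became 0.44 and was called with library totals alone. Nupr1, a small stress-induced chromatin protein gene, was at 4.74 to 5.26 against 4.98 to 5.79 CPM and did not pass.

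Atf3, a stress-induced repressor related to ATF4, was at 10.7, 5.46 and 23.7 CPM in transgenic libraries and at 4.41, 4.43 and 4.90 CPM in wild-type libraries. All transgenic libraries were above the wild-type ones, by a small margin in replicate 2 and a wide one in replicate 3. The log2 fold change was 1.55 (SE 0.63) and did not pass (adjusted p = 0.110). It passed without transgenic replicate 3 at 0.83 (adjusted p = 0.0384) and without transgenic replicate 2 at 1.94 (adjusted p = 0.0150). DESeq2 also called it, at 1.54 (adjusted p = 0.0287), as did edgeR without robust estimation (adjusted p = 0.0160).

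Of the 5 stress effectors, Eif4ebp1 fell and 4 did not pass (25.2% of all tested genes were called lower). Eif4ebp1 encodes 4E-BP1, which binds the cap-binding factor eIF4E and holds back translation. In the transgenic libraries it was at 16.4, 14.1 and 20.1 CPM, and in the wild-type libraries at 36.4, 43.0 and 37.2 CPM, with a wide gap between the groups. Its log2 fold change of -1.20 (SE 0.13, adjusted p = 5.71e-05; ENSMUSG00000031490, chr8:27260329-27276674) was the largest decrease among the members, 2.30-fold. It was called lower under every setting tried, -0.81 with library totals alone.

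Ddit4, which encodes the mTOR inhibitor REDD1, was at 8.05, 13.8 and 43.4 CPM in transgenic and 8.4, 9.2 and 6.9 CPM in wild-type libraries. Transgenic replicate 1 lay within the wild-type range and replicate 3 far above it. The log2 fold change of 1.42 (SE 0.76, adjusted p = 0.201) fell to 0.42 without transgenic replicate 3. Of the settings tried, Ddit4 was called only in the fit without robust estimation (adjusted p = 0.0464).

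Chac1, a glutathione-degrading enzyme gene that is a well-known ATF4 target, was at 28.7, 31.4 and 27.7 CPM in transgenic libraries and at 96.3, 16.2 and 17.7 CPM in wild-type libraries. The transgenic values lay between those of wild-type replicate 1 and the other two. The log2 fold change was -0.56 (SE 0.85, adjusted p = 0.634), and without wild-type replicate 1 it turned to 0.78 and passed (adjusted p = 8.54e-05). Both the call and the direction of Chac1 therefore rest on that library. Sesn2, which encodes the leucine sensor sestrin 2, was lower in every transgenic library (2.56 to 3.29 against 3.37 to 4.50 CPM) and missed the threshold (-0.43, SE 0.17, adjusted p = 0.0531), passing without wild-type replicate 2 (-0.57, adjusted p = 0.0204). Trib3, a pseudokinase gene that feeds back on ATF4 and CHOP, was near 1.5 CPM in both groups (-0.087, SE 0.28, adjusted p = 0.815).

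Amino acid synthesis genes went both ways. Psph, which encodes the last enzyme of serine synthesis, was at 22.2, 21 and 26.9 CPM in transgenic and at 14.5, 16.7 and 14.5 CPM in wild-type libraries, with no overlap. It rose by 0.62 on the log2 scale (SE 0.10, adjusted p = 5.30e-04; ENSMUSG00000029446, chr5:129765558-129787449), and by 1.01 with library totals alone. Psph shares 452 exonic bases with Cct6a on the opposite strand, and the fragments were counted without strand, so its value is uncertain. The other serine synthesis genes did not pass: Psat1 was at 0.61 (SE 0.26, adjusted p = 0.0719) and Phgdh, the first enzyme of the pathway, at -0.34 (SE 0.48, adjusted p = 0.585). Psat1 was called higher with library totals alone (1.01, adjusted p = 0.00629), with no filter on low counts (0.65, adjusted p = 0.0167), without transgenic replicate 2 (0.80, adjusted p = 0.0344) and without wild-type replicate 1 (0.81, adjusted p = 0.0445). Phgdh was under 1.2 CPM in every library and varied 2.76-fold among transgenic and 3.75-fold among wild-type libraries.

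Aldh18a1, which encodes the first enzyme of proline synthesis, fell from 8.14, 5.78 and 8.86 CPM in wild-type to 4.01, 3.29 and 4.17 CPM in transgenic libraries (-0.97, SE 0.17, adjusted p = 6.96e-04; ENSMUSG00000025007, chr19:40550257-40588463). The groups did not overlap, and Aldh18a1 was also called lower with library totals alone (-0.58, adjusted p = 0.0171). Pycr1, a later enzyme of the same pathway, was lower in every transgenic library but did not pass (-0.32, SE 0.15, adjusted p = 0.0993), and with library totals alone stood at 0.071. The asparagine synthetase gene Asns, a classical ATF4 target, was at 0.832 to 1.18 CPM in transgenic and 1.04 to 1.34 CPM in wild-type libraries (-0.14, SE 0.26, adjusted p = 0.682). Cth, the cystathionine gamma-lyase gene of cysteine synthesis, was at 0.690, 1.83 and 0.749 CPM against 1.86, 2.01 and 1.51 CPM (-0.74, SE 0.36, adjusted p = 0.109). Transgenic replicate 2 was the one that reached the wild-type range, and without it Cth passed at -1.29 (adjusted p = 0.00381). Cth was also called lower with no filter on low counts (adjusted p = 0.0347) and with limma-voom (adjusted p = 0.0494).

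The mitochondrial one-carbon enzymes use serine to make formate. Shmt2, which takes the one-carbon unit from serine, was at 38.4, 32 and 36.3 CPM in transgenic and 28.2, 30.1 and 30.2 CPM in wild-type libraries. It rose slightly, by 0.27 on the log2 scale (SE 0.08, adjusted p = 0.0129; ENSMUSG00000025403, chr10:127517123-127522444), a call that was lost without wild-type replicate 1 (0.23, adjusted p = 0.0543). Shmt2 shares 32 exonic bases with Ndufa4l2 on the opposite strand. Mthfd2, the next enzyme and one of the most often induced genes of the mitochondrial stress response, was at 5.16 to 6.56 CPM against 6.21 to 10.4 CPM and did not pass (-0.39, SE 0.20, adjusted p = 0.126). It was called lower with no filter on low counts (-0.35, adjusted p = 0.0374), and with library totals alone its change was -0.00048. Mthfd1l, which releases formate, was near 1 CPM or below in all libraries (0.54, SE 0.35, adjusted p = 0.228), and was called higher with library totals alone (0.93, adjusted p = 0.0386).

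Of the 5 amino acid carrier genes, 2 fell, 2 did not pass and 1 was too low to test (25.2% of all tested genes were called lower). Slc38a2 encodes the sodium-coupled carrier SNAT2. It was at 105, 109 and 129 CPM in transgenic and 185, 154 and 180 CPM in wild-type libraries, with no overlap (-0.60, SE 0.09, adjusted p = 4.72e-04; ENSMUSG00000022462, chr15:96687392-96699730). With library totals alone its change was -0.21 and did not pass (adjusted p = 0.121). Slc7a5, the light chain of the leucine carrier LAT1, was at 2.73, 1.53 and 1.77 CPM against 3.38, 2.96 and 3.47 CPM (-0.70, SE 0.22, adjusted p = 0.0199). The call was lost with library totals alone (-0.31, adjusted p = 0.260) and also when any of 4 libraries was left out: transgenic replicates 2 (-0.52) and 3 (-0.60) and wild-type replicates 1 (-0.68) and 3 (-0.66). The shared heavy chain gene Slc3a2 averaged 33.6 ± 4.20 against 30.7 ± 1.55 CPM (0.13, SE 0.09, adjusted p = 0.245). The arginine and lysine carrier gene Slc7a1 averaged 5.66 ± 0.748 against 5.85 ± 0.643 CPM (-0.042, SE 0.14, adjusted p = 0.822). With library totals alone both were called higher, at 0.53 and 0.35. The cystine carrier gene Slc7a11 had 29 counts over the transgenic and 15 over the wild-type libraries, and did not pass when tested without the filter (0.74, SE 0.62, adjusted p = 0.477).

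Vldlr, the very low density lipoprotein receptor gene and one reported to respond to ATF4, was at 288, 332 and 321 CPM in transgenic and 510, 519 and 569 CPM in wild-type libraries. The gap between the groups was far wider than the spread within either (-0.76, SE 0.07, adjusted p = 7.73e-06; ENSMUSG00000024924, chr19:27216484-27254231), and with library totals alone the change was -0.37 (adjusted p = 9.98e-04).

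The stress hormone genes were at or near the detection limit. Fgf21 (ENSMUSG00000030827, chr7:45613886-45615490) had 2, 2 and 3 counts in the transgenic libraries and 0 in each of the 3 wild-type ones. A count of 0 allows up to 3 counts, or 0.0863 to 0.134 CPM in the wild-type libraries, and the transgenic libraries were at 0.0657 to 0.0803 CPM, so no fold is given. All 3 transgenic libraries had counts and the wild-type libraries had none, but Fgf21 was too low to be tested. The limits are per library and cover counting error only. Gdf15 (ENSMUSG00000038508, chr8:70629393-70632456) had 8, 7 and 5 counts against 2, 10 and 4, which overlap, and tested without the filter its log2 fold change was 0.14 (SE 0.67, adjusted p = 0.928).

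The synthetase members load amino acids onto tRNA in the cytosol. Of these, 3 of the 4 fell, while 25.2% of all tested genes were called lower. Their transgenic libraries lay close together. Gars, for glycine, was at 51.9, 53.1 and 52.9 CPM in transgenic and 81.5, 82.3 and 91.7 CPM in wild-type libraries (-0.69, SE 0.06, adjusted p = 4.47e-06; ENSMUSG00000029777, chr6:55038007-55079500). It had the smallest p-value among the members. Aars, for alanine, was at 106, 101 and 104 CPM against 145, 156 and 162 CPM (-0.57, SE 0.06, adjusted p = 1.27e-05; ENSMUSG00000031960, chr8:111033144-111057664). Aars shares 1326 exonic bases with Exosc6 on the same strand, and a fragment over both was counted for each. Nars, for asparagine, was at 106, 105 and 107 CPM against 125, 140 and 134 CPM (-0.33, SE 0.06, adjusted p = 5.98e-04). Wars, for tryptophan, did not pass, at 49.7 ± 0.211 against 49.1 ± 2.92 CPM (0.019, SE 0.06, adjusted p = 0.812). With library totals alone Gars (-0.30) and Aars (-0.18) were still called lower, Nars turned to 0.068 and did not pass, and Wars was called higher at 0.41.

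The remaining cytosolic synthetase genes went both ways. Of these 16, 7 rose, 4 fell and 5 did not pass under TMM (median 0.032), whereas with library totals alone 14 were called higher and 1 lower. Over all genes, 25.5% were called higher and 25.2% lower under TMM, and 52.3% and 8.74% with library totals alone. Kars, for lysine, rose by 0.63 (SE 0.06, adjusted p = 7.10e-06) and Qars, for glutamine, by 0.62 (SE 0.06, adjusted p = 5.22e-06). Iars, for isoleucine, fell by 0.55 on the log2 scale (SE 0.05, adjusted p = 8.27e-06). Over all 20 synthetase genes 7 were higher, 7 lower and 6 did not pass (70% called, against 50.7% of all genes tested). Whether the member synthetases differ from the others as a group was not tested.

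**Figure D4:**
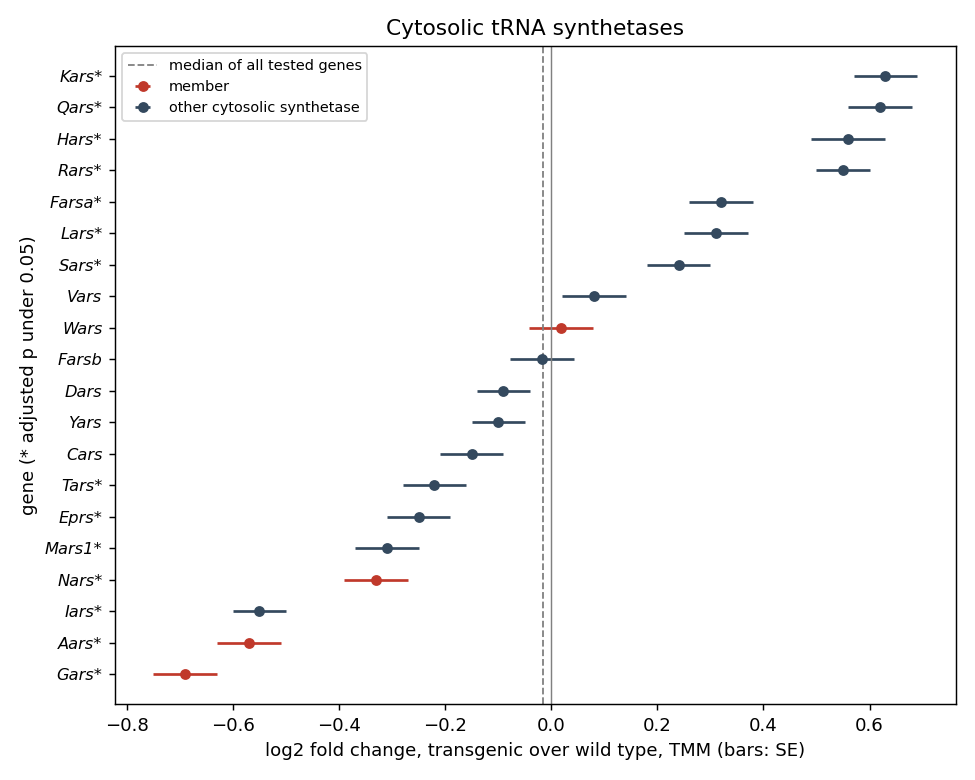
Log2 fold change (TMM scaling, transgenic over wild type, with SE) of the 20 cytosolic tRNA synthetase genes; red points are the 4 members, dark points the 16 others, and an asterisk marks adjusted p under 0.05. Gars and Aars have the lowest values and Kars and Qars the highest; with library totals alone every point lies about 0.4 further right, and Gars, Aars and Iars alone stay to the left of 0.

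Another 74 genes of the pathway, the synthetases above included, were read from lists by role. Under TMM 19 of the 69 tested were called higher and 17 lower (52.2%, against 50.7% of all genes). Library totals alone gave 44 higher and 8 lower calls (over all genes, 52.3% and 8.74% were so called). Of 7 genes for eIF2 kinases and their regulators, 3 rose and 1 fell under TMM (over all tested genes, 25.5% and 25.2%). Impact, an inhibitor of the amino acid sensing kinase GCN2, rose from 19.9 ± 1.55 to 34.0 ± 3.41 CPM (0.77, SE 0.09, adjusted p = 3.26e-05), and Gcn1, which that kinase needs for its activation, by 0.34 (SE 0.06). Upstream of ATF4, Eif2ak1, the kinase that senses haem shortage and relays mitochondrial stress, fell by 0.40 (SE 0.06), which was -0.0018 with library totals alone; it shares 487 exonic bases with Aimp2 on the opposite strand. Oma1, the mitochondrial protease at the head of that relay, rose by 0.35 (SE 0.07). Of 8 subunits of eIF2 and its exchange factor eIF2B, 3 rose and 1 fell, with Eif2s1, which carries the phosphorylated serine, up by 0.51 (SE 0.07), Eif2b1 up by 0.49 (SE 0.06) and Eif2s2 at -0.42 (SE 0.07; -0.025 with library totals alone). Phosphorylation itself was not measured.

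Genes that act beside or after ATF4 were also divided. Ppp1r15a, the ATF4 pathway's own feedback gene that directs eIF2 dephosphorylation (GADD34), fell from 25.6 ± 3.77 to 13.4 ± 1.64 CPM (-0.93, SE 0.12, adjusted p = 1.46e-04), and by 0.53 with library totals alone. Of the C/EBP partners, Cebpg fell (-0.62, SE 0.06) and Cebpb rose (0.67, SE 0.15), Cebpb sharing 312 exonic bases with Tmem189 on the opposite strand. Among 17 tested genes of a list of other reported targets 6 fell and 2 rose (over all tested genes, 25.2% and 25.5%). Sqstm1, an autophagy receptor gene, was at -0.93 (SE 0.06) and Herpud1, an endoplasmic reticulum stress gene, at -0.85 (SE 0.07), both called lower with library totals as well. Sqstm1 shares 580 exonic bases with Mrnip and Mat2a 508 with Particl, both on the opposite strand. The glutamine carrier gene Slc38a1 rose by 2.54 (SE 0.18, adjusted p = 9.15e-07), from 1.20 ± 0.211 to 6.91 ± 0.936 CPM. Of 10 tested further one-carbon and methionine genes 2 rose and 3 fell: the cytosolic folate enzyme gene Mthfd1 rose by 1.06 (SE 0.06, adjusted p = 3.08e-07), while the S-adenosylmethionine synthetase gene Mat2a fell by 0.73 (SE 0.07) on the log2 scale.

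Per kilobase of exon, Atf4 was the most abundant member in both groups, at 48.3 ± 4.83 CPM per kb in transgenic and 74.3 ± 5.28 in wild-type libraries (SD, n = 3 each). Vldlr (52.9 ± 3.19) and then Atf5 (35.0 ± 5.50) followed in wild-type muscle. In transgenic muscle Atf5 (36.0 ± 1.93) and Vldlr (31.1 ± 2.24) had changed places. Nars (30.5 ± 1.75) and Gars (27.3 ± 1.82) came next among the wild-type levels, Nars overlapping Atf5 within the SD of both. At the other end, the level per kb was under 1.0 in wild-type muscle for 11 members, among them Asns (0.423), Psat1 (0.393), Phgdh (0.306) and Trib3 (0.708). Eif4ebp1 moved furthest down the order, from the eighth to the 14th place.

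Levels from whole muscle mix fibres with other cells, and fewer cells of a type and less RNA per cell cannot be told apart. All 6 endothelial and all 6 smooth muscle and pericyte markers were called lower, with summed levels of 305 to 322 against 391 to 415 CPM and 610 to 674 against 969 to 1042 CPM. Vwf was, with library totals alone, the only endothelial marker still called lower, and among the smooth muscle and pericyte markers Rgs5 (-0.092) and Pdgfrb (-0.15) lost their calls. Macrophage markers summed to 105 to 115 CPM in transgenic and 73.8 to 120 CPM in wild-type libraries, with 2 of 10 higher (Cd68 and Lgals3) and 0 lower. Of 5 neutrophil markers 0 were high enough to test, and 3 had at most 3 counts in every library. Of 7 T and B cell markers Cd3e alone was tested, and it was higher at 7.09 to 10.7 against 0.863 to 1.20 CPM, while Cd3g had at most 3 counts in every library. Satellite cell markers were higher for 3 of 4, fibroblast markers lower for 2 of 6, and 0 of 6 adipocyte and 0 of 5 Schwann cell markers passed. Calcr, the remaining satellite cell marker, also passed with library totals alone, where 0 fibroblast markers were lower, and the fibroblast markers Col3a1 (0.35) and Lum (0.63) were called higher. The part of these cells in the members' values was not tested.

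The authors' deposited table, which lists genes of the same comparison past a p-value and fold limit, 3614 in all, held 8 of the 32 members, 2 higher and 6 lower, and all had the same direction as here. In the authors' deposited table Eif4ebp1 was at -1.192, Aldh18a1 at -0.987, Vldlr at -0.739, Gars at -0.674, Atf4 at -0.613, Slc7a5 at -0.611 and Psph at 0.728 on the log2 scale, and these 7 passed the test here. Slc7a5 had an adjusted p of 0.0577 in the authors' deposited table. Atf3 was the other, at 1.081 with an adjusted p of 0.0204 in the authors' deposited table. Being made from the same libraries, that table is no independent measurement.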

How the data were processed

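Muscle RNA was extracted with Trizol and sequenced from standard Illumina libraries, per the labels' protocols. The authors used STAR 2.5.0a, GRCm38.p6, featureCounts 2.0.0 and DESeq2 (no version given), per the submitters' processing notes. The deposited table holds raw fragment counts per gene, taken without strand and for every gene a fragment overlaps, per the file headers. A second deposited table gives the authors' log2 fold changes. It also holds the authors' p-values, raw and adjusted.

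Gene names, positions and exon lengths came from GENCODE M21 (GRCm38), matching 51718 of 51911 gene IDs and all 32 members. In R 4.3.3, edgeR 4.0.16 was run on the 16593 genes that filterByExpr kept: TMM factors, a robust quasi-likelihood fit on genotype, and Benjamini-Hochberg adjusted p-values called at 0.05. Log2 fold changes are transgenic minus wild type, and each SE is the size of the change over the root of its F value. Values by library are given for members past the threshold and at least 1.5-fold, and for Atf4, Ddit3, Fgf21 and Gdf15; Atf3, Ddit4, Chac1, Cth, Shmt2, Aars and Nars were added after their values were seen. Other pathway genes are named by smallest p, up to 3 per role; some results that these rules name are not reported here. Members and lists were chosen with earlier results of these data known. The settings varied were the scaling (library totals alone, upper-quartile factors), the tool (DESeq2 1.42.0, limma-voom in limma 3.58.1), the low-count filter, robust estimation, blocking on the replicate number, and leaving out single libraries.

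The edgeR step was tested on simulated counts (16593 genes, 200 of them changed). It made 174 calls, 7 of them false, and found 64.2% of the 1.5-fold changes, 88.1% of the 2-fold and 98.5% of the 4-fold ones. Every simulated gene was given the same variation between libraries, 10%. In the real libraries 8419 of the 16593 genes were called, far more than 200. These shares therefore do not carry over to the real data and show only that the step runs correctly. Pairs of libraries within a genotype had chi-square values of 9.92 to 24.0 per degree of freedom, above sampling noise, and all were kept as separate samples.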

Additional observations from a re-analysis of the deposited data

How the results depend on the processing

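Over 14 alternative settings, the number of members called lower stayed between 6 and 11, and Atf4, Eif4ebp1, Aldh18a1, Vldlr, Aars and Gars were called lower and Psph higher in all of them. With library totals alone the members called higher went from 2 to 9, their median from -0.32 to 0.071, and the other pathway genes called higher and lower from 19 and 17 to 44 and 8. Over all genes, library totals alone moved the shares called higher and lower from 25.5% and 25.2% to 52.3% and 8.74%. That setting turned Nupr1 (0.31), Trib3 (0.31), Asns (0.26), Phgdh (0.053), Pycr1 (0.071), Slc7a1 (0.35) and Nars (0.068) above 0; it moved the median of all genes by a like amount. Without robust estimation 4 members were called higher. The members' median was -0.14 with DESeq2 and -0.075 with no filter on low counts (both test more members). It was -0.16 with limma-voom and -0.16 with the replicate block. In these last 2 fits Chac1 moved from -0.56 to 0.0068 and -0.078, past the middle of the members, and other reasons were not tested.

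Leaving out each library in turn gave 2 to 4 members called higher and a median of -0.31 to -0.087. The leave-one-out range crossed 0 for Chac1 (-0.97 to 0.78), Atf5 (-0.092 to 0.11), Ddit3 (-0.027 to 0.20), Trib3 (-0.33 to 0.16), Asns (-0.23 to 0.02), Phgdh (-0.73 to 0.041), Slc7a1 (-0.14 to 0.071) and Wars (-0.024 to 0.06). Each such fit also has fewer samples, and the cause of these sign changes was not tested.

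Same-numbered libraries did not deviate together (correlations of 0.101, -0.0884 and -0.21), and differently numbered ones ran from -0.191 to 0.246. These values gave no sign of pairing by number, but 3 libraries per group cannot exclude it. With the replicate block 11 members were called lower and 2 higher, against 9 and 2 without it (Cth at -0.80 and Mthfd2 at -0.38 were the additions), and 8331 genes were called against 8419. Depth limits the low members most: a count of 3 equals 0.0803 to 0.134 CPM.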
